A study of Mus musculus with 6 samples.

Results

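The Kruppel-like factors (KLFs) are a family of zinc finger transcription factors, and 10 of its members were examined here among the 47729 genes counted in lung endothelial cells (ECs): Klf2, Klf3, Klf4, Klf6, Klf7, Klf9, Klf10, Klf11, Klf13 and Klf15. They were chosen by name, from the symbols that belong to the mouse Ensembl identifiers, but with earlier results of these data known. The paper reports Klf2 and Klf4 among the genes lower in KO in these data. All 10 passed the filter on low counts that left 14625 genes for testing. The question was how the flow-responsive members Klf2 and Klf4 differed between genotypes, set beside the rest of the family.

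PolyA-enriched RNA was sequenced from ECs of 3 wild-type (WT) and 3 leene-knockout (KO) libraries. WT mice were littermates of the KO mice. In KO mice, the region that carries leene, the mouse counterpart of a human long noncoding RNA that raises endothelial nitric oxide synthase, was deleted globally and not in ECs alone. Both groups were male C57BL6 mice of 14 weeks on normal chow, and both received angiotensin II (AngII) at 1000 ng/kg/min for 2 weeks from an osmotic pump, so there was no group without AngII. The labels state that the cells of 3 mice per group were pooled, so a library may hold 1 mouse or a part of a pool, and the p-values below then measure only the spread between libraries. The leene genes were not analysed here, and the genotype labels were therefore not checked against the deleted gene.

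KLFs bind GC-rich and CACCC sequences through the zinc fingers at their carboxyl end, and their variable amino ends recruit activators or repressors. In ECs, KLF2 and KLF4 are induced by laminar flow through a kinase cascade that ends in MEF2 factors, and they raise nitric oxide synthase and thrombomodulin and lower adhesion molecules. KLF6 is an early-response activator, KLF3 recruits the corepressor CtBP, and KLF9, KLF10, KLF11 and KLF13 bind the SIN3A corepressor. Klf9 and Klf15 are known targets of the glucocorticoid receptor, and Klf10 and Klf11 of TGF-beta.

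Total counts per library lay between 24464324 and 35184063, and mitochondrial genes took 37.4% to 54.5% of them. The EC markers Pecam1 and Cdh5 (the CD31 and VE-cadherin genes) were at 313 to 583 and at 178 to 753 CPM (read counts scaled to library size), and none of 15 EC markers was at 0. The libraries were not made of EC RNA alone. Summed CPM of 8 alveolar type II cell markers was 5428, 50660 and 15630 across WT, and 40030, 48640 and 39330 across KO, against 2762 to 4849 for the EC markers over all 6 libraries. For 6 markers of club and ciliated airway cells it was 15450 to 40510 in WT and 33650 to 56890 in KO. The part of these epithelial cells in the values of the KLF genes was not tested. In bulk libraries such as these, fewer cells of a type and less RNA per cell cannot be told apart. CPM values use library sizes scaled by TMM, a method that sets most genes equal between libraries.

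The starts of Klf2, Klf4 and Klf6, the members with the lowest KO to WT ratios, are shown because their sequences differ in the short elements they hold. The sequences are from RefSeq on GRCm38.p6, which held a promoter for 9 of the 10 members, all but Klf10. They run 5′ to 3′ on the strand of the gene and end before its transcript begins. Capitals mark matches on either strand to the GC box (GGGCGG), the core of the cyclic AMP response element (TGACG), the CCAAT box (CCAAT), the E-box (CACGTG) and the MEF2 site. The Klf2 stretch is at chr8:72318812-72319032 (plus strand), that of Klf4 at chr4:55532476-55532725 (minus strand) and that of Klf6 at chr13:5861339-5861488 (plus strand).
Klf2: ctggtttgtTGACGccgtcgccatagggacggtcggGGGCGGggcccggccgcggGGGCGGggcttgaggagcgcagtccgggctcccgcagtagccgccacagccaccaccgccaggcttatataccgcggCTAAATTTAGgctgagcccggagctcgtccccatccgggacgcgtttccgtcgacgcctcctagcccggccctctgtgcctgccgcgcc
Klf4: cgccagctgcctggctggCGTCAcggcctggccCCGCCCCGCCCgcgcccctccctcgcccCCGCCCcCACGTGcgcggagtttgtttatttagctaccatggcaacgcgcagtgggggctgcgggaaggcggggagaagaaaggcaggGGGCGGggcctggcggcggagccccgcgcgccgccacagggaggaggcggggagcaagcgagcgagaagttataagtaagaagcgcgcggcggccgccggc
Klf6: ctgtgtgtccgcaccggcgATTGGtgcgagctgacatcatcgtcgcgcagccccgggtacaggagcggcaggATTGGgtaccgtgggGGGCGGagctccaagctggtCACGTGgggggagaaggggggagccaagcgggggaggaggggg

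Within the 250 bases before the RefSeq start, Klf2 held a MEF2 match, between 118 and 109 bases before the start, and was the only 1 of the 9 members with one. A MEF2 match was present in 2.92% of 32851 mouse promoters of this length. Klf2 also had 2 GC boxes, whereas Klf4 had 4, of which an overlapping pair shared a base, and an E-box. GC boxes were found in 8 of the 9 members and in 32.7% of all promoters, and an E-box in 4 of the 9 and in 6.02%. The CCAAT box, with 4 matches in Klf6 and 3 in Klf9, was found in 5 of the 9 members and in 33.8% of all promoters. A CACCC box (CACCC) was found in 6 of the 9 and in 52.0%, and the TGACG core in 5 of the 9 and in 17.8%. None of the 9 windows matched the TATA box (TATAAA), the heat shock element (GAANNTTC), the core of the glucocorticoid element (ACANNNTGT), the ETS core (CCGGAA) or the CArG box, which were present in 12.4%, 6.69%, 5.84%, 12.0% and 1.47% of all promoters. These are matches of letters, with no measurement of binding. The 9 windows were 59.2% to 78.4% G and C, against a median of 52.4% over all promoters.

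Klf2 (ENSMUSG00000055148, chromosome 8, 72319033 to 72321656, plus strand, 1 annotated transcript of 3 exons) gave 292, 267 and 254.5 CPM across WT replicates 1, 2 and 3, against 121, 124 and 145 CPM across the KO replicates. All 3 KO libraries lay far below all 3 WT libraries, with a gap wider than either group. The KO level was 48.0% of WT (95% confidence interval 37.2% to 61.9%), a log2 fold change of -1.06 with a standard error (SE) of 0.16. In the quasi-likelihood test of edgeR, its p adjusted by the Benjamini-Hochberg method was 0.0852 over the 14625 genes, so it did not pass the threshold of 0.05.

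Klf4 (ENSMUSG00000003032, chromosome 4, 55527143 to 55532466, minus strand) had nearly the same pattern. It gave 224, 221 and 215 CPM across WT, against 119.8, 103 and 108 CPM across KO. The groups were wide apart and the 3 WT values were within 10 CPM of each other. The KO level was 50.1% of WT (95% confidence interval 39.9% to 63.0%), a log2 fold change of -0.996 (SE 0.14), and the adjusted p was 0.0721 in the same quasi-likelihood test.

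Klf6 (ENSMUSG00000000078, chromosome 13, 5861489 to 5870393, plus strand) was the member next in order. Its counts were 145, 147 and 143 CPM in WT and 73.45, 90.9 and 99.8 CPM in KO. The WT libraries were almost equal, and the highest KO library remained well below them. The KO level was 60.6% of WT, with a log2 fold change of -0.72 (SE 0.16, 95% confidence interval -1.08 to -0.36) and an adjusted p of 0.249 in the quasi-likelihood test.

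None of the 10 members passed the quasi-likelihood test at an adjusted p under 0.05, which 16 of the 14625 genes (0.109%) did. At an unadjusted p under 0.05, 5 of the 10 were lower in KO (Klf2, Klf4, Klf6, Klf9 and Klf13) and 0 were higher, against 4.68% of all genes lower and 5.62% higher. DESeq2 called 3 of the 10 as lower in KO with Benjamini-Hochberg adjustment, against 0.64% of its 15470 genes: Klf2 (adjusted p = 8.37e-08), Klf4 (1.82e-08) and Klf6 (0.00631). Limma-voom called Klf4 alone (adjusted p = 0.0499), against 0.178% of genes. Without WT replicate 2, the quasi-likelihood test called 3 members, with adjusted p of 0.0213 for Klf2 and for Klf4 and of 0.0455 for Klf6. In that setting 791 genes were called in all, against 16 with all libraries. The test called 0 members without any 1 of the other 5 libraries. Without any 1 of the KO libraries it called none of the genes in the whole table, so the calls named below rest on all 3 of them.

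**Figure D1:**
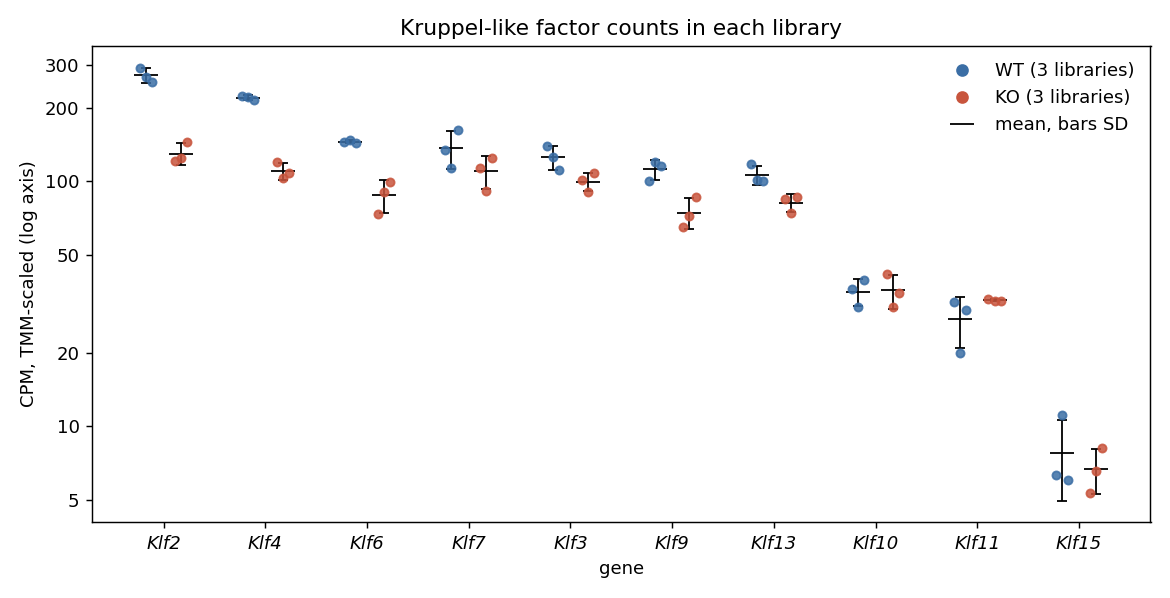
CPM of the 10 KLF members (log axis) in each of the 3 WT and 3 KO libraries, scaled by TMM, with the mean and SD of each group as black bars. For Klf2, Klf4 and Klf6 the KO points sit well below the WT points, while for Klf7, Klf10 and Klf15 they overlap.

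The activator Klf7 (ENSMUSG00000025959, chromosome 1, 64029447 to 64122282, minus strand), the member closest to Klf6 in sequence, did not share its separation. It gave 134, 113.8 and 162 CPM across WT, against 113.9, 91.5 and 125 CPM across KO. The highest KO libraries reached into the WT range. The log2 fold change of -0.31 (SE 0.19, 95% confidence interval -0.75 to 0.13) had an adjusted p of 0.585 in the quasi-likelihood test, and the interval leaves room for a KO level from 59.4% to 109% of WT.

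Klf3 (ENSMUSG00000029178, chromosome 5, 64803388 to 64832901, plus strand), the CtBP-recruiting repressor, gave 139.5, 126 and 111 CPM across WT, against 101, 90.9 and 108 CPM across KO. The groups did not overlap, but the lowest WT library was only just above the highest KO library. The log2 fold change was -0.33 (SE 0.15, 95% confidence interval -0.68 to 0.01), with an adjusted p of 0.498 in the quasi-likelihood test. Klf3 shares its strand with C230096K16Rik inside its span, a gene with 148 counts over all libraries together.

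Of the 4 members that bind SIN3A, Klf9 and Klf13 had all KO libraries below all WT libraries and Klf10 and Klf11 did not. Klf9 (ENSMUSG00000033863, chromosome 19, 23141226 to 23166911, plus strand) gave 100.1, 120.4 and 115 CPM across WT, against 65.1, 72.5 and 86.2 CPM across KO. The groups were apart, and the KO level was 66.7% of WT. Its log2 fold change was -0.58 (SE 0.16, 95% confidence interval -0.95 to -0.22), with an adjusted p of 0.307 in the quasi-likelihood test.

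Klf13 (ENSMUSG00000052040, chromosome 7, 63886351 to 63938915, minus strand), first known as an activator of Ccl5 in T cells, gave 117, 101 and 100.7 CPM across WT, against 84.5, 74.0 and 86.7 CPM across KO. The groups were again apart. The KO level was 76.8% of WT, a log2 fold change of -0.38 (SE 0.14, 95% confidence interval -0.70 to -0.06) with an adjusted p of 0.435 in the quasi-likelihood test.

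Klf10 (ENSMUSG00000037465, chromosome 15, 38294413 to 38300707, minus strand) gave 36.2, 30.7 and 39.5 CPM across WT, against 41.9, 30.6 and 35.15 CPM across KO. The KO libraries spanned the whole WT range. Its log2 fold change of 0.02 (SE 0.16, 95% confidence interval -0.36 to 0.39, adjusted p = 0.979 in the quasi-likelihood test) took the opposite sign with total counts, RLE scaling, nuclear genes only or DESeq2, where it lay between -0.16 and -0.01.

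Klf11 (ENSMUSG00000020653, chromosome 12, 24651371 to 24662774, plus strand) gave 32.3, 19.9 and 29.8 CPM across WT, against 33.0, 32.4 and 32.6 CPM across KO. The KO libraries were nearly identical and just above the highest WT library, and WT replicate 2 was low. The log2 fold change was 0.26 (SE 0.19, 95% confidence interval -0.17 to 0.69, adjusted p = 0.634 in the quasi-likelihood test), and 0.03 without WT replicate 2. Klf11 was positive under every scaling, but its groups overlapped with DESeq2, RLE scaling, total counts, nuclear genes only or no filter on low counts.

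Klf15 (ENSMUSG00000030087, chromosome 6, 90462576 to 90475238, plus strand), a regulator of metabolism in liver, heart and muscle, was the member with the fewest counts. It gave 6.29, 11.1 and 6.04 CPM across WT, against 5.33, 6.585 and 8.14 CPM across KO. The groups overlapped, and WT replicate 2 was the highest library. The log2 fold change was -0.22 (SE 0.28, 95% confidence interval -0.88 to 0.43, adjusted p = 0.779 in the quasi-likelihood test) and turned to 0.08 without that library.

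Across the family, 8 of the 10 members had a negative log2 fold change and 2 a positive one, with a median of -0.36 against 0.03 over all tested genes. In 6 of the 10 all KO libraries lay below all WT libraries, against 9.2% of all tested genes, and in 1 of the 10 (Klf11) all lay above, against 8.59%. The median was -1.03 for Klf2 and Klf4 and -0.32 for the other 8 members, whose values ran from -0.72 to 0.26.

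**Figure D2:**
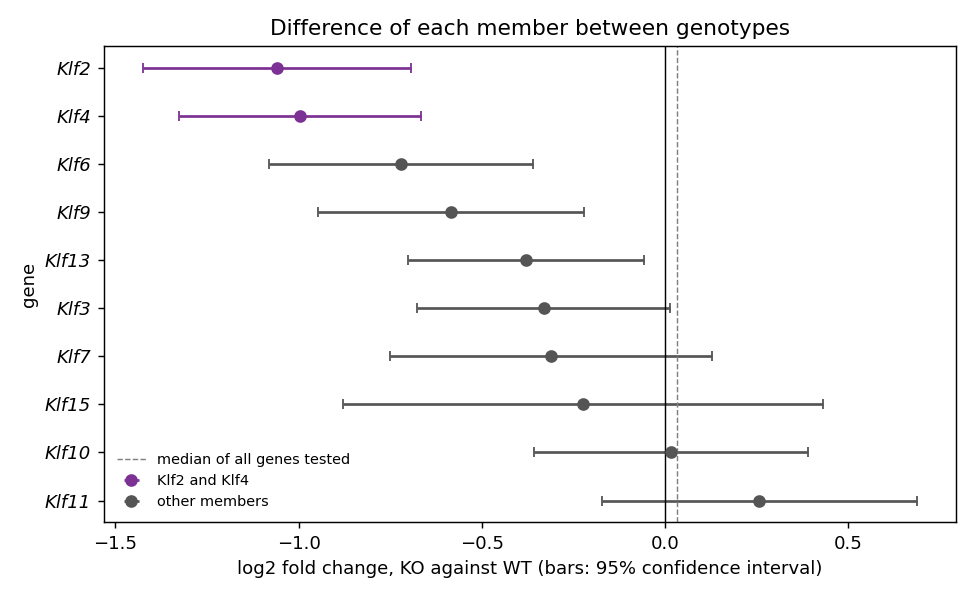
Log2 fold change of each member, KO against WT, with its 95% confidence interval from the quasi-likelihood fit, and a dashed line at the median of all tested genes (0.03). Klf2 and Klf4 (purple) lie near -1, Klf6 and Klf9 between them and the rest, and Klf10 and Klf11 at or above 0.

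To compare levels between genes, CPM was divided by the exon length of each gene in kb. Klf2 was the most abundant member in each of the 6 libraries, at 147 ± 10.3 CPM per kb in WT (SD, n = 3) and 70.4 ± 7.12 in KO (SD, n = 3). Klf4 was next in each of the 6 libraries, at 72.2 CPM per kb in WT and 36.2 in KO. The KO range of Klf2, 65.3 to 78.5, took in the WT range of Klf4, 70.5 to 73.3. Klf6 and Klf9 followed at 34.4 and 34.3 CPM per kb in WT, and their WT ranges overlapped.

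Klf7, Klf13, Klf10 and Klf3 stood between 16.8 and 11.2 CPM per kb in WT, and neither Klf7 and Klf13 nor Klf10 and Klf3 were separated by their WT ranges. Klf10 moved up in the order of the 10 members, from rank 7 or 8 in the WT libraries to rank 6 in each KO library, above Klf13. Klf11 was at 6.47 CPM per kb and Klf15 at 2.80 CPM per kb in WT. These were ranks 9 and 10 in each of the 6 libraries.

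Summed over the 10 members, the level was 363, 346 and 343 CPM per kb in WT and 199.7, 194 and 223 in KO. Klf2 and Klf4 together made up 63.8%, 62.7% and 60.7% of that sum in WT and 52.4%, 52.1% and 51.2% in KO. The family thus remained led by the same pair in KO, with a smaller share in each KO library than in any WT library.

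**Figure D3:**
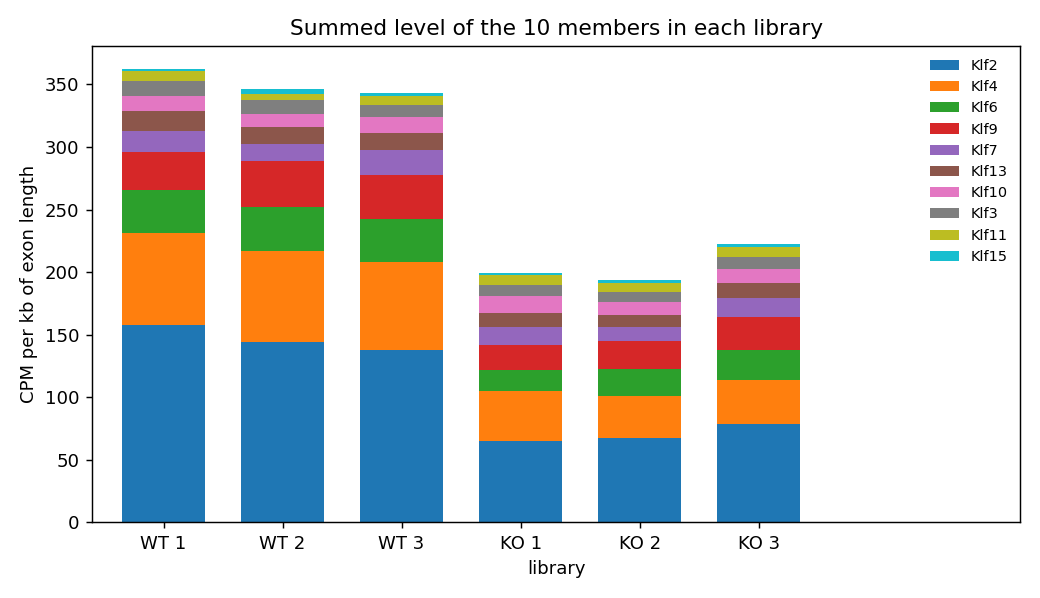
Stacked levels of the 10 members in CPM per kb of exon length, 1 bar for each library. The bars reach 343 to 363 in WT and 194 to 223 in KO, and most of the difference lies in the Klf2 and Klf4 segments at the base.

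Of the other KLF genes, 7 were in the annotation and 4 had enough counts for the test. Klf5, Klf16 and Klf12 were at 3.66, 2.98 and 2.59 CPM per kb in WT, a level at which they and Klf15 were not separated by their ranges, and Klf8 was at 0.30. Their log2 fold changes were -0.25 for Klf5, -0.13 for Klf16, 0.30 for Klf12 and -0.49 for Klf8, with adjusted p between 0.606 and 0.828 in the quasi-likelihood test. Klf1, the erythroid member, had 6 counts over all libraries, Klf14 had 3 and Klf17 had 0.

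Ratios of 2 genes within a library do not depend on how libraries are scaled. The ratio of Klf2 to Klf4, per kb, was 2.15, 1.99 and 1.96 in WT and 1.66, 2.00 and 2.21 in KO. The groups overlapped, with a difference in log2 ratio of -0.06 (exact permutation test, two-sided, p = 0.9). The ratio of Klf2 to Klf6 was 4.59, 4.14 and 4.06 in WT and 3.75, 3.12 and 3.32 in KO, a difference in log2 ratio of -0.33, and was thus lower in each KO library.

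Klf2 was lower relative to each of the 8 other members without overlap between the groups, by a log2 ratio of -0.33 against Klf6 to -1.35 against Klf11. Klf4 was lower without overlap relative to 5 of the 8, while its ratios to Klf6 (-0.27), Klf9 (-0.41) and Klf15 (-0.81) overlapped between the groups. The 8 ratios of Klf2 share its counts, as those of Klf4 do. The counts of both were without overlap, so these ratios largely repeat that separation. The share of all genes that would give such ratios was not computed. With 3 libraries against 3, the exact two-sided permutation test cannot give a p below 0.1, which was 0.132 after Benjamini-Hochberg adjustment over the 25 ratios computed. The difference between the pair and the other 8 members, as mean log2 CPM, was 2.03, 2.01 and 1.92 in WT and 1.29, 1.25 and 1.17 in KO.

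**Figure D4:**
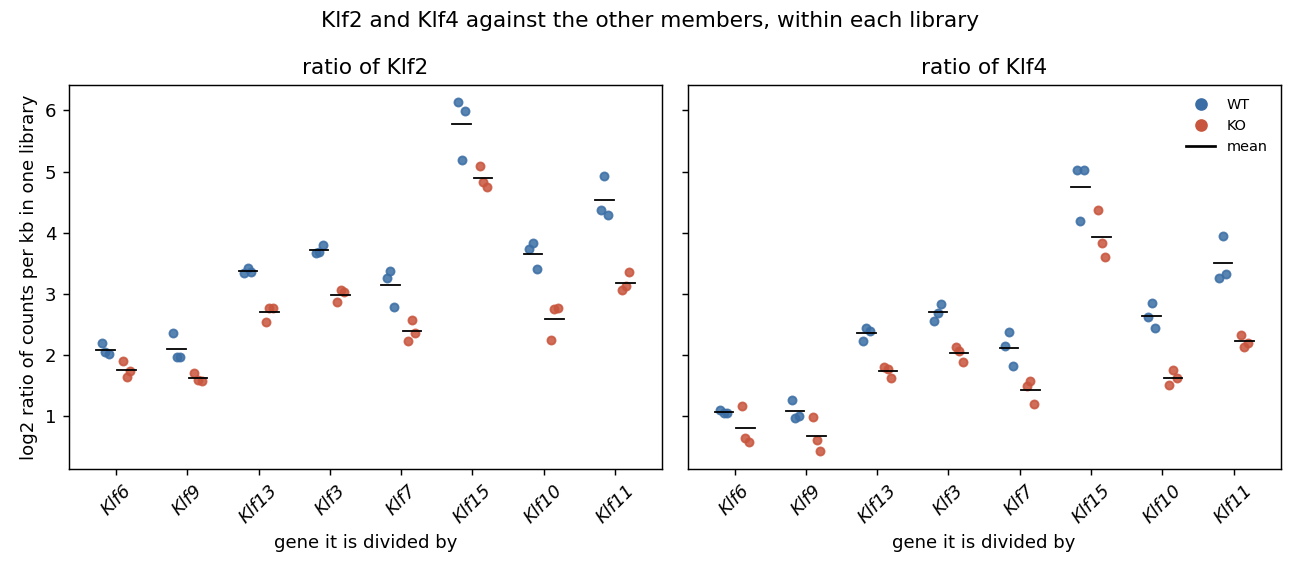
Log2 ratio of the counts per kb of Klf2 (left) or Klf4 (right) to each of the other 8 members, within each of the 6 libraries, with the mean of each group as a line. Klf2 ratios are lower in KO for all 8 genes, while Klf4 ratios to Klf6, Klf9 and Klf15 overlap between WT and KO.

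The lower level of Klf2, Klf4, Klf6 and Klf9 was also present relative to the EC gene Pecam1, and that of Klf2 and Klf4 relative to Cdh5. Klf6 and Klf9 were not divided by Cdh5. The ratio of Klf2 to Pecam1, per kb, was 3.15, 2.04 and 1.47 in WT and 0.723, 1.11 and 1.09 in KO, and each KO library was below each WT library, with a log2 difference of -1.15. For Klf4, Klf6 and Klf9 to Pecam1 the log2 differences were -1.09, -0.82 and -0.68, and it was -1.65 for Klf2 to Cdh5 and -1.59 for Klf4 to Cdh5, all without overlap. The gap was narrow for Klf6 to Pecam1, with 0.363 in the lowest WT and 0.354 in the highest KO library. For Klf9 to Pecam1 these values were 0.377 and 0.366. The share of all genes whose ratio to Pecam1 was without overlap was not computed. Cdh5 itself had a log2 fold change of 0.51 with overlapping groups. Of the 15 EC markers themselves, 12 had a positive and 3 a negative log2 fold change, with a median of 0.08 and 0 called. That median lay between -0.08 (without WT replicate 1) and 0.52 (without WT replicate 3) with each library left out in turn. Kdr, the VEGF receptor gene, was the 1 of the 15 whose groups did not overlap, with a log2 fold change of 0.87 (adjusted p = 0.313 in the quasi-likelihood test). Over all tested genes, 17.8% had groups that did not overlap.

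Markers of lymphocytes also differed between the same groups, while those of smooth muscle and pericytes went both ways. All 8 B cell markers were higher in KO, and their summed level was 11.2 to 23.2 CPM in WT and 78.3 to 83.4 CPM in KO. The quasi-likelihood test called 3 of them, against 0.109% of all tested genes. The 8 T cell markers summed to 3.53 to 6.11 CPM in WT and 8.17 to 12.9 CPM in KO (median log2 fold change 1.03). In the same test 4 of them were higher at an unadjusted p under 0.05, against 5.62% of all tested genes. None of these 16 genes was at 0 in all libraries. Their part in the values of Klf2, a gene that lymphocytes also express, was not tested. Of 6 smooth muscle and pericyte markers, 4 had a negative and 2 a positive log2 fold change, with a median of -0.37 (-0.15 without WT replicate 1), and none was at 0. Tagln, an actin-binding protein of smooth muscle, gave 83.8, 68.9 and 84.9 CPM across WT, against 29.3, 37.8 and 46.5 CPM across KO, a log2 fold change of -1.06 (adjusted p = 0.1398 in the quasi-likelihood test, 0.000497 in DESeq2 with Benjamini-Hochberg adjustment). Acta2, the smooth muscle actin gene, was at -0.53 (adjusted p = 0.363 in the quasi-likelihood test). Tagln and Acta2 were the 2 of the 6 without overlap, against 17.8% of all tested genes. Pdgfrb and Cspg4, the 2 with a positive value, were at 0.60 and 0.54 with overlapping groups. The summed level of the 6 markers was 184 to 221 CPM in WT and 142 to 193 CPM in KO. The part of these cells in the values of the KLF genes was not tested.

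The genes that act upstream of Klf2 and Klf4 in ECs did not separate in the same way. These 15 genes comprised the MEKK3, MEK5, ERK5 and MEF2 cascade, the deacetylases Hdac5 and Hdac7 that bind MEF2 factors, the CCM complex that restrains the cascade with its partners Heg1 and Rasip1, and the mechanosensitive channel gene Piezo1. Of them, 9 had a negative and 6 a positive log2 fold change, with a median of -0.02 and 0 genes at an unadjusted p under 0.05. Without WT replicate 2 the median was -0.15. Heg1, the receptor that anchors the CCM complex, gave 337, 337 and 344 CPM across WT, against 292, 225 and 282 CPM across KO, a log2 fold change of -0.35 (adjusted p = 0.524 in the quasi-likelihood test). Heg1 and Ccm2 (-0.18) were the 2 of the 15 whose groups did not overlap, against 17.8% of all tested genes. Mef2c, a MEF2 factor of ECs, had a log2 fold change of 0.33.

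Genes that KLF2 or KLF4 are known to induce in ECs lay on both sides of 0. Of 14 tested genes 6 had a negative and 8 a positive log2 fold change, with a median of 0.19 and 0 called. The median lay between -0.02 (without WT replicate 1) and 0.35 (without WT replicate 3) with each library left out. Nos3, the endothelial nitric oxide synthase, gave 44.3, 46.95 and 29.4 CPM across WT, against 16.8, 25.2 and 21.0 CPM across KO. The groups did not overlap, and the log2 fold change was -0.94 (SE 0.22, adjusted p = 0.274 in the quasi-likelihood test, 0.024 in DESeq2 with Benjamini-Hochberg adjustment). The ratio of Nos3 to Klf2 overlapped between the groups, with a log2 difference of 0.14 (exact permutation test, two-sided, p = 0.7).

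Thbd, which encodes thrombomodulin, gave 166, 346 and 597 CPM across WT, against 429, 223 and 356 CPM across KO. The libraries of both groups were spread over the same range, and the log2 fold change of -0.14 (SE 0.45) turned to 0.38 without WT replicate 3. Ccn3, a matricellular protein induced by KLF2, was higher in each KO library than in any WT library, with a log2 fold change of 0.86 (adjusted p = 0.374). Gja4, a gap junction gene of arterial ECs, had a log2 fold change of 0.57 (adjusted p = 0.513, both in the quasi-likelihood test).

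Genes that the pair is known to lower were likewise on both sides. Of the 10 tested, 5 had a negative and 5 a positive log2 fold change, with a median of -0.06 and 0 called, and a median from -0.34 (without WT replicate 1) to 0.11 (without WT replicate 2) with each library left out. The adhesion molecule Sele gave 1.91, 2.17 and 1.498 CPM across WT, against 0.688, 0.478 and 1.17 CPM across KO, a log2 fold change of -1.25. Angpt2, an antagonist of the TEK receptor, had 1.15 and was higher in each KO library. The adjusted p was 0.394 for Sele and 0.383 for Angpt2 in the quasi-likelihood test.

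Lists of stimulus-responsive genes had mostly negative values. Of 10 glucocorticoid-induced genes, a list that left out Klf9 and Klf15, all 10 had KO libraries below all WT libraries, with a median log2 fold change of -1.37. That separation was present in 9.2% of all tested genes. Tsc22d3, a glucocorticoid-induced regulator of inflammation, was the 1 gene of the list that was called, at -1.56 (adjusted p = 0.0348 in the quasi-likelihood test). Zbtb16 and Cebpd had -2.25 and -1.51. Beside them, Klf9 was at -0.58 and Klf15 at -0.22 with overlapping groups.

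Of 10 TGF-beta-induced genes, 7 had a negative and 3 a positive log2 fold change, with a median of -0.23 and 0 called. Of these 10 genes, 1 (Id1, -0.49) was without overlap, against 17.8% of all tested genes. Klf10 and Klf11, which respond to the same cytokine, were at 0.02 and 0.26. The sign of Klf10 depended on the scaling, as above.

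Of 20 immediate early genes, which are induced within minutes of a stimulus, 19 had a negative log2 fold change, with a median of -0.71. In 12 of them all KO libraries lay below all WT libraries, against 9.2% of all tested genes. Maff (-1.37) and Csrnp1 (-1.31) were called, with adjusted p of 0.0188 and 0.0352 in the quasi-likelihood test. The summed level of the 20 genes was 751 to 801 CPM in WT and 493 to 618 CPM in KO. Of 12 heat shock genes, all 12 had KO libraries below all WT libraries. Their median log2 fold change was -1.33, and the chaperone genes Hspa1b, Hsph1 and Hspb1 were called. Hspa1b has a near-identical copy and its counts are uncertain. Summed heat shock counts were 1757 to 2477 CPM in WT and 921 to 996 CPM in KO. The part of what moved these 2 lists in the values of the KLF genes was not tested.

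**Figure D5:**
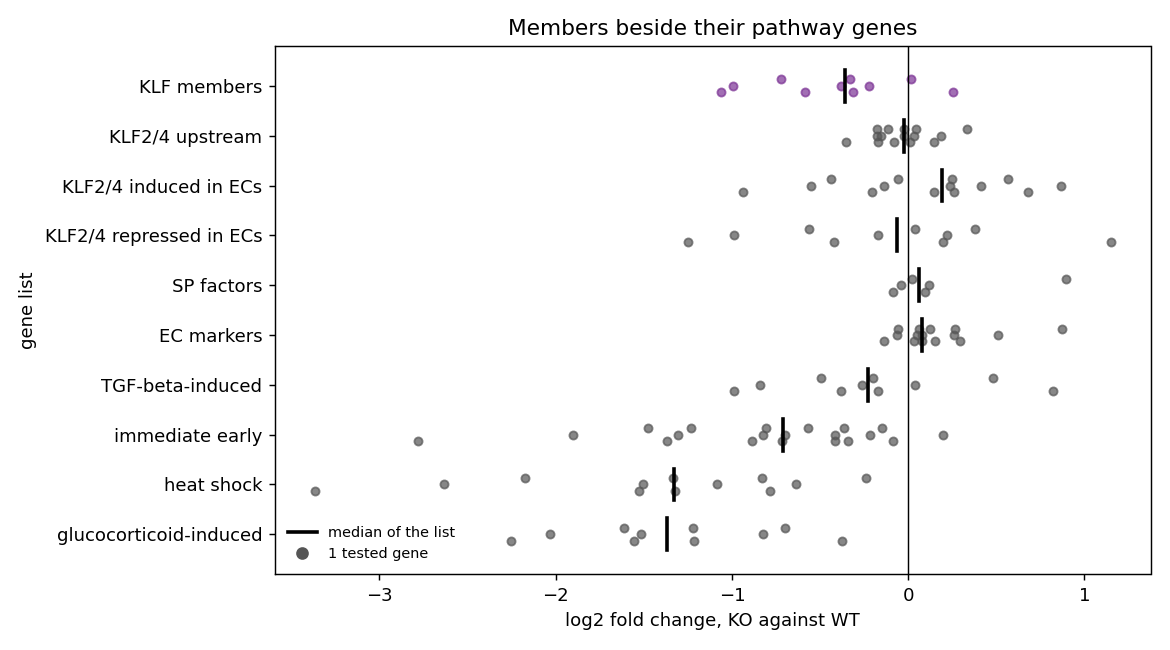
Log2 fold change, KO against WT, of each tested gene in 10 lists, with the median of each list as a black line. The KLF members (purple, median -0.36) lie between the upstream, induced and repressed lists, with medians of -0.02, 0.19 and -0.06, and the heat shock and glucocorticoid lists, with medians of -1.33 and -1.37.

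Over the 6 libraries, the genes whose log2 CPM followed Klf2 and Klf4 most closely were taken from 8012 genes with enough counts, as a description. For Klf2 they were Fkbp4 (Pearson r = 0.997), a co-chaperone of steroid receptors, Rai14 (0.994), Slc25a25 (0.994), Maff (0.994) and the RNA helicase gene Ddx17 (0.993). For Klf4 they were the cell cycle inhibitor Cdkn1a (0.997), the small heat shock protein gene Hspb1 (0.997), Hspa4l (0.995), Litaf (0.994) and Chordc1 (0.994). Klf2 and Klf4 had r = 0.970 with each other, which was rank 49 among the genes most like Klf2 and rank 38 among those most like Klf4.

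Fkbp4 gave 111, 99.7 and 99.4 CPM across WT, against 48.9, 52.8 and 56.6 CPM across KO. Cdkn1a gave 149.7, 156 and 156 CPM across WT, against 51.4, 42.1 and 47.5 CPM across KO. Both were apart between the groups by more than the spread within them, and a correlation over 2 such groups of 3 largely repeats that separation. Within the family, Klf6 (r = 0.968), Klf13 (0.926) and Klf9 (0.916) were closest to Klf2 after Klf4, while Klf10 (-0.07) and Klf11 (-0.52) did not follow it.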

How the data were processed

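Per the labels, lung ECs enriched for CD31 were used for strand-specific polyA libraries, whereas the study's methods name an antibody against CD144. The authors deposited raw counts per gene for each of 6 libraries, with no normalization. The submitters' processing notes list bcl2fastq 2.18, STAR 2.5.4b, Subread 2.0.0 and mm10, and the file headers give featureCounts with the Ensembl release 84 annotation, reverse strand, 1 count per gene over its exons. Reads with several alignments or genes were not counted, so genes with near-identical copies are uncertain. Symbols (47224 of 47729 genes) came from GENCODE's annotation of GRCm38, and all 10 members matched 1 identifier each.

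Counts were tested in R 4.3.3 with edgeR 4.0.16 (filterByExpr, TMM, glmQLFit and glmQLFTest with default options, genotype as the only term) over all 14625 genes passing the filter, with Benjamini-Hochberg adjustment and a threshold of 0.05. The SE is the log2 fold change divided by the square root of its F statistic. Alternatives were DESeq2 1.42.0, limma-voom (limma 3.58.1), other scalings and filters, the option legacy set to FALSE, the replicate number as a block, and each library left out in turn. The main edgeR fit, DESeq2 and limma-voom were checked on simulated counts with known changes. The other alternatives and the permutation test were not checked in this way. The smallest chi-square per degree of freedom between 2 libraries was 37.0, so no library was a copy of another. Log2 CPM for correlations used a prior count of 2 and genes with a mean above 3.

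Every member was named. Of each other list, counts were given and up to 3 genes with the lowest unadjusted p, with Nos3 and Thbd always named; 1 gene that this rule names is not reported here. From the EC and lymphocyte markers only genes used in a ratio or without overlap were named. Of the smooth muscle and pericyte markers, those without overlap and those with a positive value were named. The 5 genes most like Klf2 and Klf4 were named by Pearson r, and single genes of the longer lists only by that rule. The members, lists and tests were chosen with earlier results of these data known.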

Additional observations from a re-analysis of the deposited data

How the results depend on the processing

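Klf2, Klf3, Klf4, Klf6, Klf7, Klf9 and Klf13 kept a negative log2 fold change in all 15 alternatives, and Klf11 a positive one. For Klf2 it lay between -1.24 and -1.05, and between -1.15 and -1.01 with each library left out in turn. For Klf4 it lay between -1.17 and -0.99, and between -1.08 and -0.98 with each library left out. Klf2 passed the threshold with DESeq2 (-1.09) and with no filter (-1.06), and Klf4 with DESeq2 (-1.03), limma-voom (-0.99), no filter (-1.001) and legacy FALSE (-0.996). The members called, 0 in the main test, were 3 with DESeq2, 1 with limma-voom, 2 with no filter, 1 with legacy FALSE and 0 to 3 with each library left out. The genes called, 16 in the main test, were 187 with DESeq2, 26 with limma-voom, 26 with RLE scaling, 123 with total counts, 152 with no filter and 0 to 791 with each library left out, with 791 without WT replicate 2 and 0 without each of the KO libraries. With total counts the median of all genes moved from 0.03 to -0.13, the median of the members to -0.55, and the members without overlap from 7 to 4 (Klf2, Klf4, Klf6 and Klf9). The share of all tested genes without overlap also fell, from 17.8% to 11.4%. The cause of these differences was not tested. Klf10 changed sign with DESeq2 (-0.0162), RLE scaling (-0.0122), total counts (-0.16) and nuclear genes only (-0.00741), and lay between -0.13 and 0.090 with each library left out. Sp4 changed sign with total counts (-0.10) and lay between -0.041 and 0.20 with each library left out. Klf15 lay between -0.39 and 0.081 and Thbd between -0.49 and 0.38. Whether the replicate numbers pair the samples could not be settled with 3 libraries per group. The deviations of same-numbered libraries correlated at -0.08, 0.22 and 0.01. Of the 6 libraries, 2 (replicate 2 of WT and of KO) matched best their own number. With the replicate number as a block, 0 genes were called, and Klf2 was at -1.06 (adjusted p = 0.242) and Klf4 at -0.999 (adjusted p = 0.227). Among the 10 members Klf15 had the fewest counts, 124 to 377 per library.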

Other observations

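Factors that share sites or partners with the KLFs were compared between the same groups. Of 6 tested SP factors, the related zinc finger proteins that bind the same GC boxes, 2 had a negative and 4 a positive log2 fold change, with a median of 0.06 and no gene at an unadjusted p under 0.05. Sp2 had -0.09 and Sp4 0.10, the latter with a sign that depended on the scaling. Sp5, with 10 to 31 counts per library, had 0.90 (adjusted p = 0.582 by the Benjamini-Hochberg method, from edgeR's quasi-likelihood test), with overlapping groups.

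Of 14 genes for corepressors, coactivators and ubiquitin ligases that act on KLF proteins, 10 had a negative and 4 a positive log2 fold change, with a median of -0.13 and 0 called. Ctbp2, a corepressor that KLF3 recruits, was at 39.6, 35.1 and 33.3 CPM in WT and 28.0, 31.4 and 27.6 CPM in KO, without overlap. Its log2 fold change was -0.31 (adjusted p = 0.468 in the quasi-likelihood test). Of the 14 genes, 1 (Ctbp2) was lower in KO without overlap and 1 was higher, against 9.2% and 8.59% of all tested genes. Crebbp, a coactivator with acetyltransferase activity, had -0.27 and Hdac2, a deacetylase of the SIN3A complex, -0.17, both with overlapping groups.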
